A study of Bos taurus with 12 samples.

Results

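Expression of 9 genes coding for enzymes of the tricarboxylic acid (TCA) cycle was examined in the mammary gland (MG) of early lactation Holstein cows. The genes were CS, IDH1, IDH2, IDH3A, OGDH, DLST, SUCLG1, FH and MDH2. They were found on the array by matching the RefSeq accession of each probe to the bovine RefSeq gene table, which gave 22 probes for the 9 genes among 43653 probes and 12639 named genes in all. Of these 22 probes, 20 exceeded the background clearly, by the call of the scanner software, on each of the 12 arrays, and 0 were saturated. The 2 exceptions were the dimmest CS probe, dim in 1 CONT cow, and the dimmest IDH2 probe, dim in 1 REST cow.

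Each array held RNA of 1 MG biopsy from 1 multiparous cow, 24 ± 3 d in milk when the diets began. Control cows (CONT, n = 6) ate a lactation diet ad libitum, and in restricted cows (REST, n = 6) barley straw made up 48% of the dry matter of the diet over 4 d. On d 3, every cow of both groups received 50 µg of lipopolysaccharide (LPS), a bacterial wall component that inflames the udder, in 1 healthy gland at the rear of the udder, and the biopsy followed 24 h later. The comparison is therefore one of diets within LPS-challenged glands, and cows without LPS were not analysed here.

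The TCA cycle runs in mitochondria, where it oxidizes acetyl groups derived from carbohydrates, fatty acids and amino acids and passes electrons to the respiratory chain. In the lactating MG of ruminants it also provides citrate, and cytosolic oxidation of isocitrate by the enzyme that IDH1 encodes is known as a main source of NADPH for milk fatty acid synthesis. Propionate, a product of rumen fermentation, enters the cycle through succinyl-CoA, and inflammatory activation of macrophages is known to change the use of citrate and succinate.

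All levels below are log2 intensities of a probe minus the log2 75th percentile of its array, so that 0 is the 75th percentile. They compare cows for 1 probe and not genes with each other. The brightest probe stands for each gene, and a difference is the REST mean minus the CONT mean on the log2 scale. The 75th percentile ranged from 386.9 to 1184 intensity units among arrays, and 57.6 to 78.1% of probes exceeded the background clearly. The arrays lay on 3 slides of 4 arrays, with 3 CONT and 1 REST cows, 1 CONT and 3 REST cows, and 2 of each. Of the 9 milk secretory epithelium markers that could be matched, among them the casein genes CSN1S1 and CSN3, all exceeded it on each of the 12 arrays. In a biopsy, fewer cells of a type and less RNA per cell cannot be told apart.

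For none of the 9 genes did the difference between REST and CONT pass the test. Of the 22 probes, 0 passed the threshold of 0.05 after Westfall-Young adjustment of the limma test over all probes (adjusted p = 1 for each), 0 did so after Benjamini-Hochberg adjustment, and 0 had an unadjusted p under 0.05. Over the whole array, 0% of probes passed the Westfall-Young threshold (lowest adjusted p 0.26), and 2.62% had an unadjusted p under 0.05. In 0 of the 22 probes were the groups free of overlap, against 0.128% of all probes. By their brightest probes, 3 genes had a higher mean in REST and 6 a lower mean, with a median difference of -0.060 beside -0.034 over all named genes. That count of 3 was 0 without the 6th CONT cow and 1 without the 6th REST cow. A p that misses the threshold does not show equal levels, so that the intervals below give the changes these 12 cows leave possible.

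**Figure D1:**
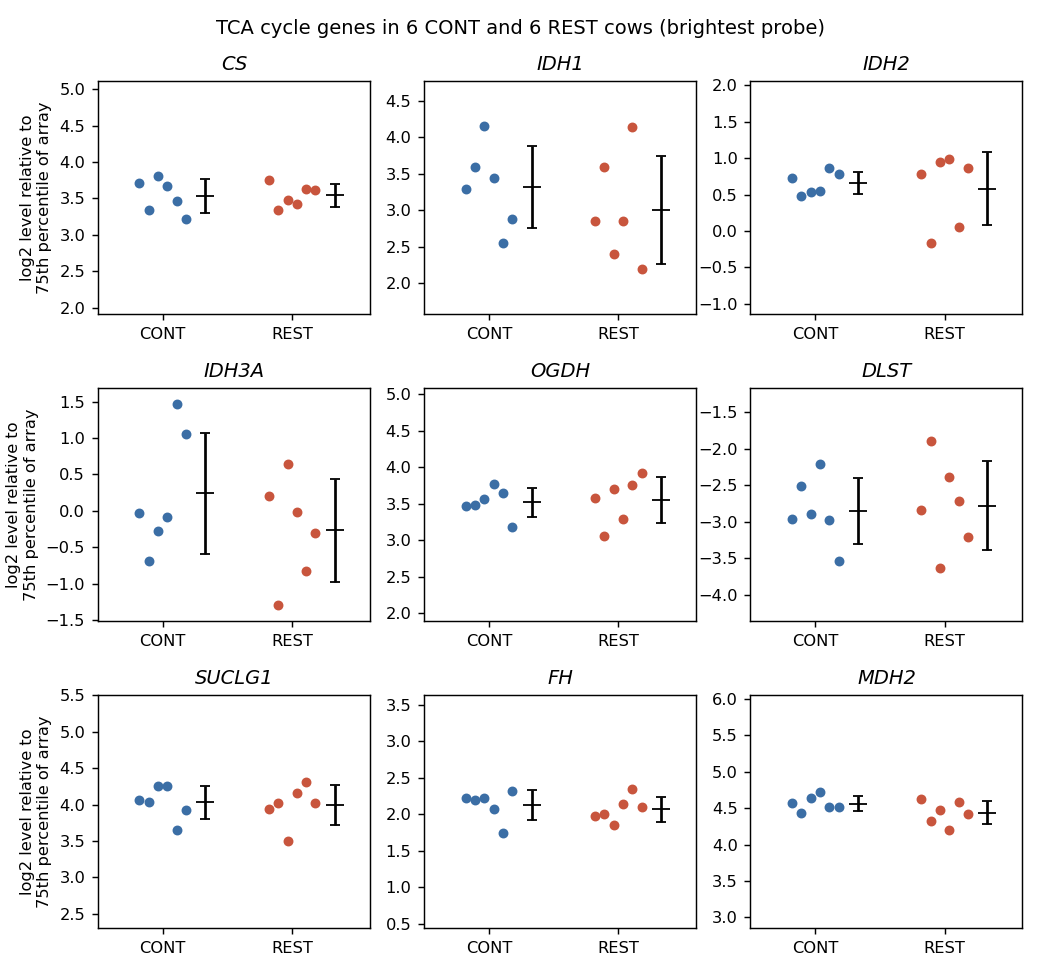
Log2 level relative to the 75th percentile of the array for the brightest probe of each gene, with 1 point per cow (6 CONT, 6 REST) and the mean ± SD beside the points; every panel spans the same number of log2 units. The groups overlap for all 9 genes, and IDH1, IDH3A and DLST spread more among cows than CS or MDH2.

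Citrate synthase, encoded by CS (NM_001044721), joins acetyl-CoA to oxaloacetate at the entry of the cycle. Its level was 3.21 at the lowest, 3.57 at the median and 3.81 at the highest in CONT, and 3.34, 3.55 and 3.75 in REST. All 6 REST values lay inside the CONT range. The difference was 0.0051 ± 0.15 (SE, n = 6 and 6), with a 95% interval from -0.32 to 0.33, that is a fold change (FC) between 0.803 and 1.25.

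The isocitrate dehydrogenases form 3 enzymes with different places and cofactors. IDH1 (NM_181012) codes for the cytosolic, NADPH-forming enzyme, and was measured by 1 probe. Its level ran from 2.55 over a median of 3.37 to 4.15 in CONT and from 2.20 over 2.86 to 4.15 in REST. The highest cows of both groups stood at the same level, whereas 2 REST cows lay below every CONT cow. The difference was -0.31 ± 0.35 (SE), with a 95% interval from -1.08 to 0.46 (FC 0.473 to 1.37), and an exact permutation test over all assignments of 6 cows to each group gave p = 0.405 (two-sided). Within slides the difference was -0.34, 0.24 and -1.22, so that its sign was not the same on all 3 slides, and with slide as a block it was -0.52.

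IDH2 (NM_175790) codes for the mitochondrial NADPH-forming enzyme. The level was 0.48, 0.64 and 0.87 (lowest, median and highest) in CONT and -0.17, 0.82 and 0.99 in REST. The REST cows fell apart into 2 cows below all CONT cows, at -0.17 and 0.050, and 4 cows between 0.78 and 0.99, of which 2 exceeded all CONT cows. The SD was accordingly 0.16 in CONT and 0.50 in REST, a difference in spread that was not tested. The difference of means was -0.078 ± 0.22 (SE), with a 95% interval from -0.56 to 0.40, and turned to 0.015 with slide as a block.

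IDH3A (NM_174644) codes for the catalytic subunit of the NADH-forming enzyme, which acts within the cycle. Its level was -0.69, -0.055 and 1.47 in CONT and -1.29, -0.16 and 0.64 in REST. The 2 highest values, 1.47 and 1.05, were those of 2 CONT cows, and 1 REST cow lay above the CONT mean. IDH3A had the largest difference of the 9 genes without a block, -0.51 ± 0.41 (SE), but with the widest interval, from -1.40 to 0.38 (FC 0.379 to 1.30), and an exact permutation p of 0.284 (two-sided, n = 6 and 6). The brightest probe was below 0 within each slide (-0.035, -0.69 and -0.21), while the other IDH3A probe was at 0.41, -0.75 and -0.14. By the brightest probe the difference was -0.30 with slide as a block, where IDH1 had the larger difference. It was -0.26 without the 5th CONT cow, -0.35 without the 6th CONT cow, -0.30 without the 2nd REST cow and -0.40 without the 5th REST cow, and in these 4 cases also smaller than that of IDH1.

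OGDH (NM_001076030) and DLST (NM_001075282) code for the first and the second component of the 2-oxoglutarate dehydrogenase complex, which releases carbon dioxide and forms succinyl-CoA. OGDH levels were 3.19, 3.52 and 3.76 in CONT and 3.06, 3.64 and 3.92 in REST. The difference of 0.032 ± 0.17 (SE) had a 95% interval from -0.35 to 0.41. DLST levels were -3.54, -2.94 and -2.21 in CONT and -3.64, -2.78 and -1.89 in REST. For both genes, 1 REST cow lay above and 1 below all CONT cows. The DLST difference was 0.071 ± 0.30 (SE), with a 95% interval from -0.58 to 0.72.

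SUCLG1 (NM_001035082) codes for the alpha subunit of succinyl-CoA ligase, which makes succinate with the formation of a nucleoside triphosphate. Its level was 3.65, 4.05 and 4.25 in CONT and 3.50, 4.03 and 4.32 in REST. Of the REST cows, 1 lay above and 1 below all CONT cows. The difference was -0.035 ± 0.17 (SE), with a 95% interval from -0.40 to 0.33. FH (NM_001075803) codes for fumarase, which hydrates fumarate to malate. Its level was 1.74, 2.21 and 2.32 in CONT and 1.85, 2.05 and 2.34 in REST, and 1 REST cow exceeded all CONT cows. The difference was -0.060 ± 0.15 (SE), with a 95% interval from -0.38 to 0.26 (FC 0.771 to 1.20).

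MDH2 (NM_001013587) codes for mitochondrial malate dehydrogenase, which restores oxaloacetate and also serves the malate-aspartate shuttle. The level was 4.43, 4.54 and 4.72 in CONT and 4.20, 4.45 and 4.62 in REST. It was the gene with the most REST cows, 3 of 6, below the whole CONT range, although the shift was small. The difference was -0.12 ± 0.13 (SE), with a 95% interval from -0.40 to 0.15 (FC 0.756 to 1.11), and the exact permutation p was 0.141 (two-sided, n = 6 and 6). Within slides it was 0.074, -0.20 and -0.13. The intervals of MDH2, FH and CS were the 3 narrowest of the brightest probes.

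With slide as a block the remaining genes kept the sign of their differences, while most sizes moved. FH was then -0.14 and SUCLG1 -0.11, both further from 0 than without the block. OGDH was 0.13 and CS 0.020, likewise further from 0. DLST was 0.026 and MDH2 -0.089, both nearer to 0.

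**Figure D2:**
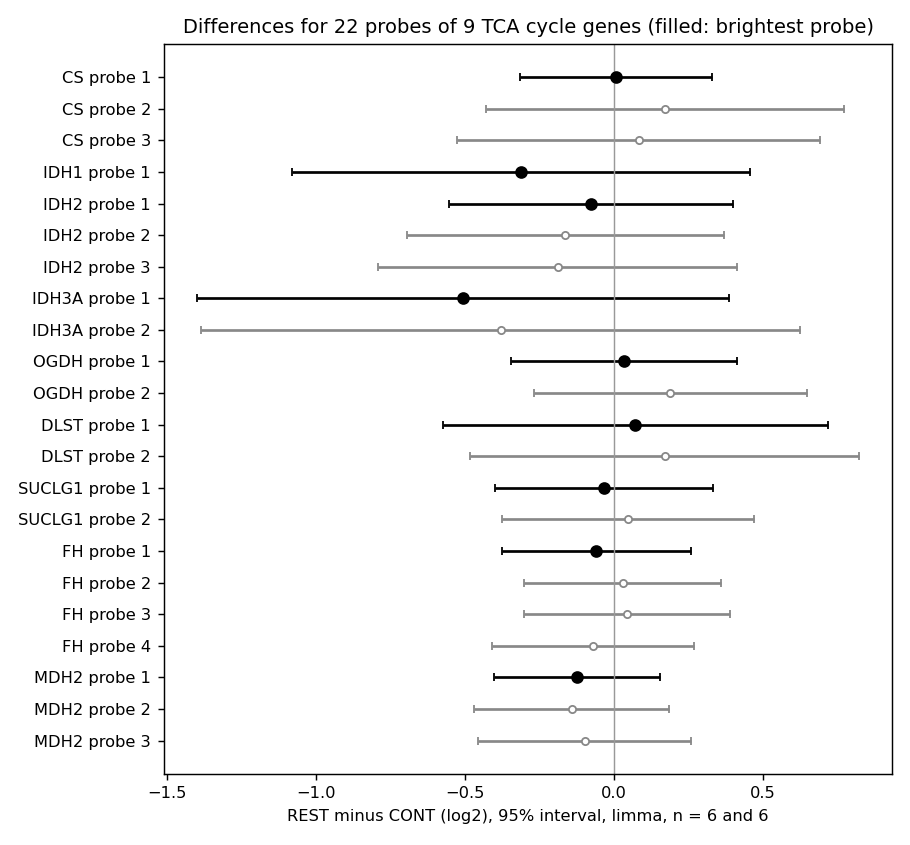
REST minus CONT difference in log2 units with its 95% interval (limma, n = 6 and 6) for the 22 probes, numbered within each gene from the brightest (filled) to the dimmest. Every interval includes 0, and the widest are those of IDH3A.

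The probes of a gene mostly gave the same direction. All probes of CS, OGDH and DLST were higher on average in REST, and all those of IDH2, IDH3A and MDH2 were lower, whereas the probes of SUCLG1 and FH had both signs. The 3 MDH2 probes gave -0.12, -0.14 and -0.099, and the 2 IDH3A probes -0.51 and -0.38. Probes of 1 gene share the same RNA and are not replicates.

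Across cows, agreement between probes was uneven. After removal of the group means, the 2 probes of IDH3A correlated with r = 0.988 over 12 cows and those of DLST with r = 0.927, whereas the 2 OGDH probes had r = 0.129. The second IDH2 probe (A_73_P337931) ran against the brightest IDH2 probe, with r = -0.712 and rho = -0.671 (permutation p = 0.0366 and 0.0352), while the dimmest IDH2 probe followed the brightest one with r = 0.788. The second IDH2 probe instead followed the IDH1 probe, with r = 0.946 and rho = 0.923 (permutation p = 9e-05 and 0.00018, and 0.00027 and 0.00054 after Benjamini-Hochberg adjustment over 3 such relations; r = 0.945 without the 2 cows farthest from the median of IDH1). Only 9 of the 43447 other probes without a missing value, 0.0207%, had as high an r with IDH1. The relation was much the same within CONT (r = 0.981), within REST (r = 0.928) and after removal of slide effects (r = 0.943). This comparison was made after the values were seen, and the sequences of the probes were not used here, so that which transcript the second IDH2 probe measured was not tested. The level of IDH2 above therefore rests on the brightest probe, and the mean over all 3 probes would mix opposite profiles.

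**Figure D3:**
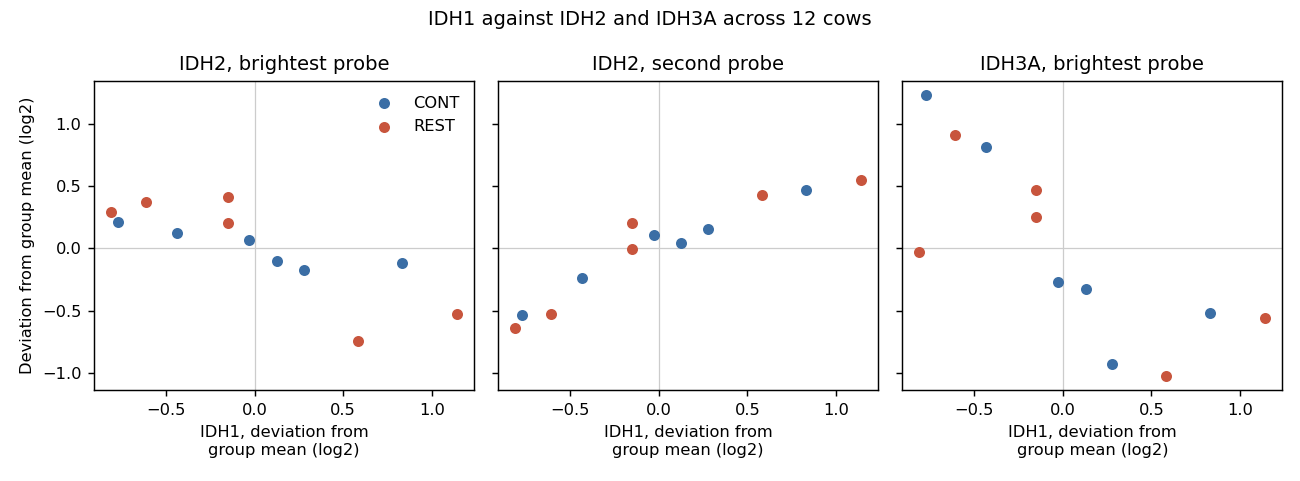
Deviation of each cow from its group mean (log2 units) for IDH1 on the horizontal axis, against the brightest IDH2 probe, the second IDH2 probe and the brightest IDH3A probe, for 6 CONT and 6 REST cows. The brightest IDH2 probe and IDH3A fall as IDH1 rises (r = -0.808 and -0.772), whereas the second IDH2 probe rises with IDH1 (r = 0.946).

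The 9 genes did not vary as 1 block among cows. With group means removed, the SD was 0.77 for IDH3A, 0.66 for IDH1 and 0.54 for DLST, against 0.20 for CS, 0.19 for FH and 0.13 for MDH2 (log2 units). Among the 36 pairs of genes, 21 correlated positively and 15 negatively, with a median r of 0.034. After Benjamini-Hochberg adjustment over the 36 pairs, 1 pair was under 0.05 by Pearson's r and 4 pairs by Spearman's rho (two-sided permutation within groups, 100000 draws), and 9 pairs had an unadjusted p under 0.05 by Pearson's r.

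By its brightest probe IDH2 varied together with IDH3A, which is likewise mitochondrial. Their r was 0.762 (p = 0.00026, adjusted p = 0.00936 by Benjamini-Hochberg) and rho was 0.839 (p = 0.00046, adjusted 0.0166), with r = 0.927 within CONT and 0.897 within REST. Without the 2 cows farthest from the median of IDH2, r was 0.712, and leaving out each cow in turn gave 0.699 to 0.794. Removal of slide effects gave r = 0.704, with an adjusted p of 0.065. The second IDH2 probe had the opposite sign with IDH3A, r = -0.743 and rho = -0.755 (p = 0.00777 and 0.00907, adjusted 0.0117 and 0.0136 over its 3 relations), and -0.568 without the 2 cows farthest from the median of IDH3A.

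IDH1 varied against both of them. Its r with IDH2 was -0.808 (p = 0.00416, adjusted 0.0602) and rho was -0.860 (p = 0.00118, adjusted 0.0212). With IDH3A, r was -0.772 (p = 0.00502, adjusted 0.0602) and rho was -0.832 (p = 0.00282, adjusted 0.0331). Both relations thus passed the threshold by rank and not by r. Without the 2 cows farthest from the median of IDH1, r was -0.807 and -0.827, and with slide effects removed it was -0.758 and -0.712 (adjusted p = 0.065 for both).

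The cows behind this pattern belonged to both diets. The 2 REST cows with the lowest IDH2, at -0.17 and 0.050, had the highest IDH1 of their group, 3.59 and 4.15. Their arrays had the lowest 75th percentiles of all, 386.9 and 508.5 intensity units, against 569.6 or more on the other arrays. Both arrays lay on the slide with 3 REST cows. The same 2 REST cows had the lowest mean levels of their group for 3 marker lists: pan-leukocyte (0.50 and 0.82), neutrophil and macrophage (-1.39 and -0.60) and fibroblast (1.35 and 1.84). They had the highest of their group for the lymphocyte list (0.70 and 0.61) and the adipocyte list (-0.17 and -0.24). The lymphocyte list includes MS4A1, which was above background in 0 CONT and 4 REST cows. The 2 CONT cows with the highest IDH3A, at 1.47 and 1.05, had the lowest IDH1 of theirs, 2.55 and 2.88. Slides moved with these genes too. On the slide with 3 REST cows the mean deviation was 0.39 for IDH1, -0.20 for IDH2 and -0.40 for IDH3A, and on the slide with 2 cows of each group it was -0.26, 0.17 and 0.29.

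CS and MDH2, whose products act in succession around oxaloacetate, formed the other positive pair by rank. Their r was 0.700 (p = 0.00755, adjusted 0.065) and rho was 0.790 (p = 0.00368, adjusted 0.0331), with r = 0.795 without the 2 cows farthest from the median of CS. With slide effects removed, r was 0.719. This pair rests on the brightest probes. With the brightest CS probe, the second and the dimmest CS probes had r of only 0.464 and 0.258. The second and the dimmest MDH2 probes had r = 0.648 and 0.414 with the brightest MDH2 probe. The relation was not tested with these dimmer probes. SUCLG1 had r = 0.734 with FH (p = 0.00933, adjusted 0.065; rho = 0.580, p = 0.0587, adjusted 0.214), but r was 0.304 without the 2 cows farthest from the median of SUCLG1.

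**Figure D4:**
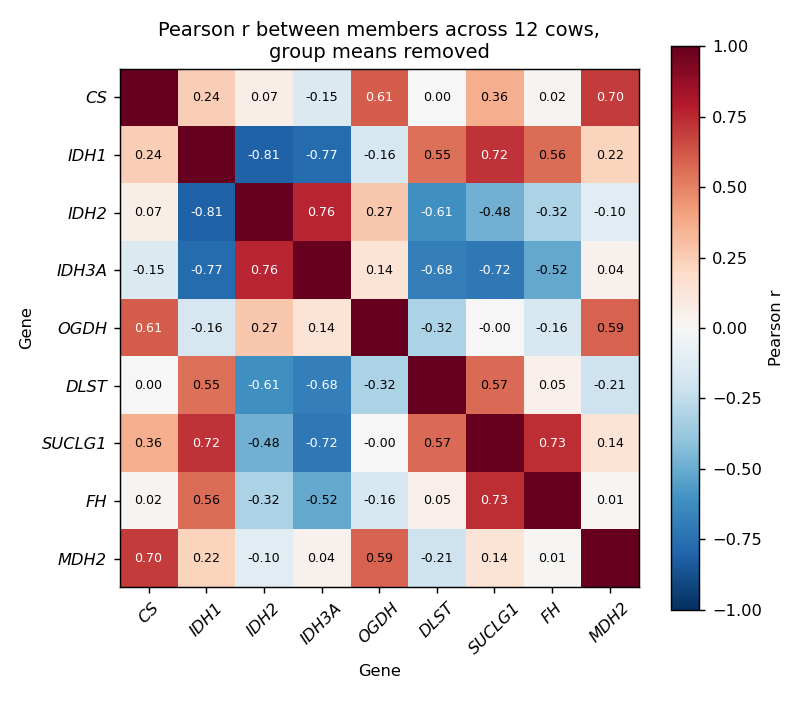
Pearson r for each pair of the 9 genes across 12 cows after removal of group means (brightest probes; colour scale from -1 to 1, with the value printed in each cell). IDH2 and IDH3A are positive with each other and negative with IDH1 and DLST.

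Measures of the whole array and of other cell types were set beside these profiles. Against the log2 75th percentile and the share of probes well above background, 0 of 18 relations were under 0.05 after Benjamini-Hochberg adjustment (1 before). The 1 relation was that of DLST with the share of probes, with r = -0.701 (p = 0.0142, adjusted 0.256), rho = -0.804 (p = 0.00463, adjusted 0.0833) and r = -0.727 without the 2 farthest cows. IDH1 had r = -0.611 with the percentile (rho = -0.594; p = 0.0578 and 0.067, adjusted 0.361 and 0.321), and IDH2 had r = 0.607 (rho = 0.441; p = 0.097 and 0.224, adjusted 0.361 and 0.402). Without the 2 cows farthest from the median of IDH1 or IDH2, the r with the percentile was -0.448 and 0.215. The part of signal strength in the pattern was not tested further.

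Against the mean level of 8 lists of cell type markers, 0 of 72 relations were under 0.05 after adjustment by r or by rho, and 12 had an unadjusted p under 0.05. IDH3A had the highest r, 0.859 with the 6 myoepithelial markers (p = 0.00119, adjusted 0.081; rho = 0.776, p = 0.00733, adjusted 0.1; r = 0.726 without the 2 farthest cows). With slide effects removed that r was 0.908 (adjusted p = 0.00648), and SUCLG1 against the same list was -0.837 (adjusted p = 0.032), the 2 of the 72 that were then under 0.05. These p-values permute all 12 cows rather than within groups, and by that permutation 4 of the 72 were under 0.05 without the removal. Before that removal SUCLG1 had r = -0.790 with this list (p = 0.00502, adjusted 0.0904; rho = -0.615, p = 0.0484, adjusted 0.26), and r = -0.397 without the 2 farthest cows. IDH1 had r = -0.622 with it (p = 0.04, adjusted 0.24; rho = -0.52, p = 0.0991, adjusted 0.31), and r = -0.520 without its 2 farthest cows. That r was -0.937 within CONT and -0.382 within REST. The mean level of the myoepithelial list, which includes KRT14 and ACTA2 and has 5 of 6 genes above background in every cow, ran from 1.32 to 2.49 in CONT and from 1.19 to 2.35 in REST. The part of myoepithelial cells in the IDH3A, SUCLG1 and IDH1 values was not tested. With the fibroblast list IDH3A had r = 0.668 (p = 0.005, adjusted 0.0904; rho = 0.762, p = 0.0068, adjusted 0.1; r = 0.691 without the 2 farthest cows). The mean level of that list of 6 genes was 2.45 to 2.82 in CONT and 1.35 to 3.02 in REST, and COL1A1, COL1A2 and LUM had unadjusted p-values of 0.0396, 0.0323 and 0.00417 with lower REST means (adjusted p = 1 by Westfall-Young). With slide as a block these unadjusted p-values were 0.185, 0.131 and 0.0117.

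The adipocyte list took part in 5 of the 12 relations under 0.05 before adjustment. DLST had r = 0.786 with it (p = 0.00225, adjusted 0.081; rho = 0.755, p = 0.00576, adjusted 0.1), and 0.719 without the 2 cows farthest from the median of DLST. IDH3A had r = -0.735 (p = 0.0102, adjusted 0.133; rho = -0.762, p = 0.00765, adjusted 0.1) and -0.771 without its 2 farthest cows. IDH2 had r = -0.575, IDH1 0.652 and SUCLG1 0.677 (p = 0.0111, 0.0221 and 0.0236, adjusted 0.133, 0.17 and 0.17), with rho of -0.629, 0.678 and 0.713 (p = 0.00837, 0.0167 and 0.0169, adjusted 0.1, 0.152 and 0.152). Without the 2 farthest cows these r were -0.538, 0.583 and 0.670. Of the 8 genes of the list 7 were measured, and FABP4, CFD and LPL were the 3 above background in every cow. The mean level was -1.85 to -0.093 in CONT and -1.47 to -0.17 in REST, and the part of adipocytes in these values was not tested.

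The relations of IDH2 and IDH1 with 3 lists of leukocyte markers also missed the adjusted threshold, and 3 of these 6 relations were under 0.05 before adjustment. With the mean of the 3 pan-leukocyte genes PTPRC, CORO1A and LCP1, all above background in every cow, IDH2 had r = 0.784 (p = 0.0196, adjusted 0.17) and rho = 0.657 (p = 0.0491, adjusted 0.26). That r was 0.919 within REST and 0.315 within CONT, and 0.485 without the 2 cows farthest from the median of IDH2. IDH1 had r = -0.668 with the same list (p = 0.0336, adjusted 0.22; rho = -0.657, p = 0.039, adjusted 0.26), with -0.903 within REST, -0.203 within CONT and -0.562 without its 2 farthest cows. With the 8 neutrophil and macrophage genes measured, IDH2 had r = 0.754 (p = 0.0233, adjusted 0.17; rho = 0.643, p = 0.0498, adjusted 0.26), and 0.409 without the 2 farthest cows. That r was 0.866 within REST and 0.230 within CONT. In this list ITGAM was above background in only 4 CONT and 5 REST cows. S100A8 and S100A9 had the largest SD of the list in REST, 2.24 and 2.36. IDH1 had r = -0.603 with that list (p = 0.0646, adjusted 0.28; rho = -0.580, p = 0.0741, adjusted 0.279), and -0.572 without its 2 farthest cows. It was -0.818 within REST and -0.120 within CONT. The lymphocyte list ran the other way, with r = -0.492 for IDH2 (p = 0.116, adjusted 0.333; rho = -0.364, p = 0.257, adjusted 0.514) and 0.401 for IDH1 (p = 0.212, adjusted 0.403; rho = 0.385, p = 0.237, adjusted 0.502). These r were -0.835 and 0.841 within REST but 0.22 and -0.12 within CONT, and -0.070 and 0.149 over all cows without the 2 farthest. The mean level of the pan-leukocyte list ran from 1.104 to 2.45 in CONT and from 0.50 to 2.48 in REST, and that of the neutrophil and macrophage list from -0.64 to 0.79 and from -1.39 to 1.27. The part of leukocytes in the IDH1 and IDH2 values was not tested, nor was the difference between the diets in these relations. Of the 5 lymphocyte genes that exceeded the background in cows of both groups, 3 were higher and 2 lower in REST, with a median difference of 0.13. CD3D had an unadjusted limma p of 0.04 with a higher REST mean, which became 0.123 with slide as a block, and its Westfall-Young adjusted p was 1. The other lymphocyte gene, MS4A1, was above background in 0 CONT and 4 REST cows, so that no difference is given for it. Its values did enter the mean level of the lymphocyte list and the relations of that list with IDH1 and IDH2. The 5 endothelial genes had a median difference of 0.50, which was 0.15 without the 6th CONT cow, whose mean level for the list was -1.68 against 0.14 to 0.52 in the other CONT cows. Among them VWF had an unadjusted limma p of 0.0227 and a Westfall-Young adjusted p of 1, and without the 3rd REST cow the unadjusted p was 0.0516.

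The genes whose profile was most like that of IDH1 were sought among 8992 named genes that exceeded the background in every cow. With r over 12 cows, group means removed, they were CCDC47 (r = 0.968), TYRP1 (0.959), TMEM263 (0.952), ENPP4 (0.942) and SELENOF (0.937). For the mean profile of the 8 mitochondrial genes, which spanned only -0.22 to 0.11 log2 units among cows, they were DEGS1 (0.937), STK35 (0.887), BACE2 (0.880), TAPBP (0.877) and PCBP1 (0.861). These are the highest of many values and are given as a description, with no test.

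None of the other genes of the cycle that were listed passed the test. Of the 8 measured among IDH3B, IDH3G, DLD, SUCLG2, SUCLA2, SDHA, SDHB, SDHC and SDHD (SDHC was not matched), 2 were higher on average in REST and 6 lower, 0 had an unadjusted p under 0.05, and the median difference was -0.078. SUCLA2, the ATP-forming beta subunit of succinyl-CoA ligase, had the largest difference, -0.25 ± 0.18 (SE), with a 95% interval from -0.65 to 0.15. The partners of IDH3A, IDH3B and IDH3G, differed by -0.11 ± 0.15 and 0.12 ± 0.12 (SE).

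Supply of pyruvate was the neighbouring step with the largest single difference. Of 12 genes measured, 1 had an unadjusted p under 0.05, and the median difference was -0.061 (-0.14 with slide as a block). PDK4, a kinase that inhibits the pyruvate dehydrogenase complex, was 2.36 to 3.58 in CONT and 4.08 to 7.001 in REST, without overlap. The difference was 2.23 ± 0.46 (SE; FC 4.70, 95% interval 2.35 to 9.42), higher in 6 of 6 REST cows than in any CONT cow, and the exact permutation p was 0.00217 (two-sided), the smallest that 6 against 6 can give. In the limma test over all probes its adjusted p was nevertheless 0.94 by Westfall-Young and 1.00 by Benjamini-Hochberg. The study, in contrast, lists PDK4 among its differentially expressed genes. Subunits of the complex that PDK4 acts on differed by -0.15 ± 0.14 for PDHA1, -0.22 ± 0.17 for PDHB and 0.044 ± 0.15 for DLAT (SE). PDP1 did not rise clearly above background in any cow, and PDPR did so in 1 CONT and 1 REST cow.

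Of 13 genes of anaplerosis and propionate entry, 3 were higher and 10 lower in REST, with a median of -0.17 (-0.067 with slide as a block) and 0 at an unadjusted p under 0.05. Over all named genes, 43.5% were higher in REST. The 4 genes of the propionate route (PCCA, PCCB, MCEE and MMUT) all had lower means in REST. PCCA, a subunit of propionyl-CoA carboxylase, had the largest difference of the list. Its level was 0.45, 0.52 and 1.25 in CONT and -0.21, 0.38 and 0.48 in REST, and all 6 REST cows lay below the CONT mean. The difference was -0.34 ± 0.18 (SE), with a 95% interval from -0.73 to 0.052. The exact permutation p was 0.00433 (two-sided, n = 6 and 6), but the limma p was 0.0837 and its Westfall-Young adjusted p was 1.

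Among genes of citrate export and cytosolic NADPH formation, 6 were measured, 1 was higher and 5 lower, and the median was -0.094 (0.0066 with slide as a block). ACO1, the cytosolic aconitase that also acts as an iron regulatory protein, was the 1 gene with an unadjusted limma p under 0.05, at 0.0497, and its Westfall-Young adjusted p was 1 (exact permutation p = 0.0671). It was -1.20, -0.64 and -0.059 in CONT and -0.81, 0.11 and 0.43 in REST, a difference of 0.55 ± 0.25 (SE). Within slides that difference was 0.15, 1.03 and -0.0032, and the groups overlapped. With slide as a block it was 0.35, with an unadjusted limma p of 0.202.

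Of the itaconate and 2-hydroxyglutarate list, 4 genes were measured (ACOD1 was not matched), and OGDHL did not rise clearly above background in any cow. DHTKD1, a homologue of OGDH that acts on 2-oxoadipate, had a difference of -0.43 ± 0.20 (SE), with a 95% interval from -0.86 to 0.0096 and an exact permutation p of 0.0541 (two-sided, n = 6 and 6). The 12 genes of mitochondrial content, among them TFAM, VDAC1 and ATP5F1A, had a median difference of -0.063 and 0 with an unadjusted p under 0.05. The largest was CYCS, which codes for cytochrome c, at -0.17 ± 0.21 (SE).

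**Figure D5:**
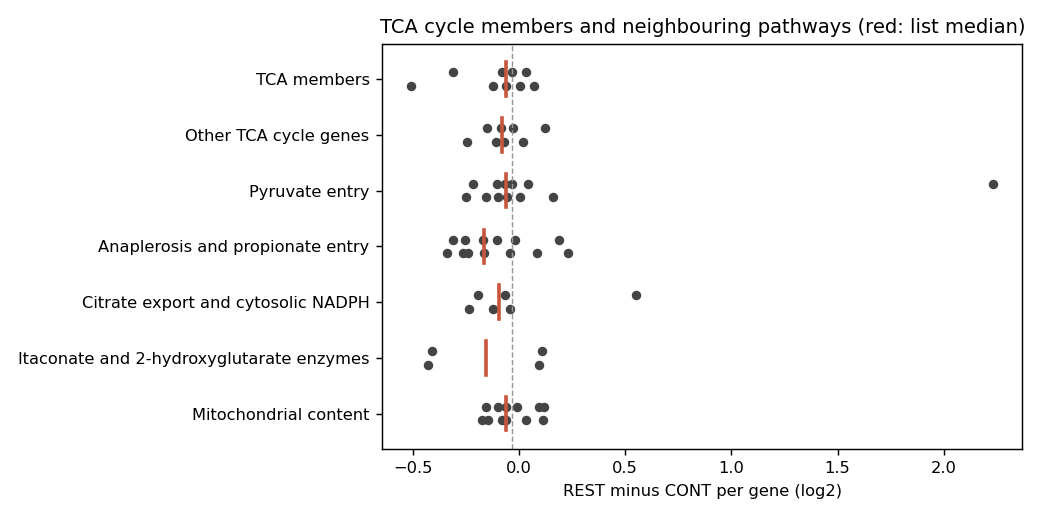
REST minus CONT difference per gene (log2 units, brightest probe) for the 9 TCA cycle genes and 6 neighbouring lists, with 1 point per gene, a red bar at each list's median and a dashed line at the median of all named genes (-0.034). PDK4 is the point at 2.23, and ACO1 that at 0.55; PDP1, PDPR and OGDHL are drawn although they were near background.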

How the data were processed

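Total RNA (100 ng) from each biopsy was labeled with Cy3 by the authors and hybridized to bovine arrays of Agilent in one color. The deposited intensity values were made by the authors with Feature Extraction (release 11), which subtracts background, and they carry no normalization between arrays; the series matrix holds the same intensities. Control spots were left out, outlier spots counted as missing, and spot values were averaged per probe on the log2 scale after division by the 75th percentile of the array. The diets were compared by limma 3.58.1 in R 4.3.3, two-sided, with Westfall-Young adjustment over 100 assignments of the cows, the method the study names. The study used GeneSpring software and reported genes that passed its adjusted threshold of 0.05, PDK4 among them. Those calls were not reproduced here. Correlations used numpy 2.4.6, and figures matplotlib 3.10.9. Where slide effects were removed, all 12 residuals were permuted, which ignores the fitted terms and makes those p-values too small. Cows are biological replicates. The array number limits the precision. The procedure was tested on simulated data. The genes named are the 9 members, per pathway list the genes with an unadjusted p under 0.05 or else the largest difference among bright genes, and the 5 most alike; others were picked with their values in view. A planned list gene is not reported here. Members and lists were chosen with earlier results of these data known. Genome positions were not used here, since the array design and the gene table belong to different assemblies, and sequences were not used here.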

Additional observations from a re-analysis of the deposited data

Results flagged for a closer look

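Within each group of 6 cows, each of the 22 probes was screened for a cow far from the others, by the gap to the nearest cow over the range of the group. Of the 44 sets of 6 values, 1 stood out. The second CS probe was at 0.078 in the 4th REST cow, while the other 5 REST cows lay between 0.49 and 0.68 (gap of 0.691 of the range). Chance marks about 1 in 20 such sets, that is 2.2 of 44. The brightest CS probe was not marked.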

How the results depend on the processing

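The settings tried were Benjamini-Hochberg adjustment, quantile normalization, normexp background correction (offset 50), the series matrix values, a filter to the 26678 probes well above background in a group, outlier spots kept, slide as a block, an intensity trend, the mean over the bright probes of a gene, and leaving out each cow. Under all of them 0 members passed the adjusted threshold and 0 had an unadjusted p under 0.05 (Benjamini-Hochberg leaves that p as it is). Signs turned for differences near 0: DLST was -0.010 and SUCLG1 0.025 with normexp, IDH2 0.015 with slide as a block, and SUCLG1 0.0065 with the mean over probes. Leaving out 1 cow gave -0.059 to 0.059 for CS, -0.54 to -0.15 for IDH1, -0.16 to 0.071 for IDH2, -0.69 to -0.26 for IDH3A, -0.041 to 0.13 for OGDH, -0.11 to 0.24 for DLST, -0.11 to 0.064 for SUCLG1, -0.14 to -0.017 for FH and -0.16 to -0.077 for MDH2. Members higher in REST then numbered 0 to 4, and their median was -0.11 to -0.017. With slide effects removed, pairs of members under 0.05 went from 1 to 0, and relations with marker lists, a family added after seeing the data, from 0 to 2. The permutation changed as well, from within groups to all 12 cows. By the latter permutation without slide removal the counts were 6 and 4. No paired analysis was possible because the groups hold different cows and the labels match none of them across diets. The planned promoter and protein descriptions were not run. With 6 cows a group, differences of the size seen for IDH1 and IDH3A lie within the spread among cows.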
